A study of Mus musculus with 12 samples.

Results

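Creatine kinase and adenylate energy buffering was followed through 9 genes in mouse extensor digitorum longus (EDL), which is a hind-limb muscle built almost wholly of fast-twitch fibres. Members were the rows of the expression table that carry the symbol Ckm, Ckmt2, Ckb, Slc6a8, Gamt, Ak1, Ampd1, Ampd3 or Adssl1, 9 of 17752 genes in all. The study used male mice that ran voluntarily on wheels for 8 weeks, beginning at 8 weeks of age, or that stayed sedentary. It asked how loss of RIP140, a nuclear receptor corepressor encoded by Nrip1, changes gene expression in muscle with and without this training. Group names are those of the labels: Ctrl, Sedentary; Nrip1KO, Sedentary; Ctrl, Trained; and Nrip1KO, Trained, with 3 libraries each and 12 in all. Mice labelled Nrip1KO were, per the study's methods, strNrip1-/- animals, in which a floxed Nrip1 fl/fl allele (C57BL/6J) is cut by Cre recombinase under the muscle creatine kinase promoter, active in heart and skeletal muscle. Controls were WT littermates, and whether they carried the floxed allele was not stated in the sources used here. The promoter that drives this Cre is that of Ckm, itself a member, so by design mice labelled Nrip1KO carry a transgene with a Ckm promoter that those labelled Ctrl lack. Per the methods, mice that ran little were left out, and wheels were taken away for some time before the end of training studies.

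A working muscle spends ATP faster than mitochondria or glycolysis can refill it, and a buffer bridges the gap. Creatine kinases move phosphate between ATP and creatine, with a mitochondrial enzyme that loads phosphocreatine at the site of ATP synthesis and a cytosolic enzyme at the myofibrils that spends it. Adenylate kinase recovers ATP from ADP and leaves AMP, which AMP deaminase turns into IMP, and adenylosuccinate synthetase begins the return of IMP to AMP in the purine nucleotide cycle. Fast muscle is known for high phosphocreatine and for high activity of the cytosolic creatine kinase, adenylate kinase and AMP deaminase.

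Expression was measured as FPKM, fragments per kilobase of transcript scaled by depth, and all 9 members passed the filter of a mean of at least 0.5 FPKM that left 12744 genes for testing. Depth, estimated from the spacing of low values, was 19.7 M to 29.5 M fragments per library (M, 1e6). Differences are on the log2(FPKM + 0.5) scale, which understates changes of low genes, and a call needed a limma adjusted p-value under 0.05 together with a fold change above 1.2. The labels name replicates but not the animals behind them, so p-values measure the spread between these samples. EDL was sequenced whole, and fewer cells of a type and less RNA per cell cannot be told apart in any value. Nrip1 went against the labels, at 2.53 to 4.76 FPKM in the 6 libraries labelled Ctrl and 14.9 to 20.7 FPKM in the 6 labelled Nrip1KO (log2 fold change 2.08, SE 0.198, limma adjusted p = 0.000277 when sedentary). Per the methods, the floxed part of Nrip1 holds its start and stop codons. A gene-level FPKM does not show which part of a gene its fragments came from, so it cannot show whether that part was lost. Genotype directions given here follow the labels. Transcripts of the mitochondrial genome made up 51.2% to 52.8% of all FPKM in the libraries labelled Nrip1KO, Sedentary and 42.2% to 47.3% in the other 9. The sum over 6 muscle fibre markers was 61242 to 68657 FPKM under Ctrl, Sedentary and 45875 to 61561 FPKM under Nrip1KO, Sedentary. When trained it was 61537 to 77337 FPKM under Ctrl and 53499 to 55006 FPKM under Nrip1KO, and no gene of this list was called. The sum over 7 slow fibre markers was 57.9 to 563 FPKM over all libraries. None of the markers of any list was at 0 in all libraries.

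Windows upstream of a RefSeq transcript start of 3 members are shown first, because Ckm is the gene whose promoter drives the Cre and because Ckmt2 and Gamt moved in opposite directions between the labelled genotypes. They are the 250 bases before the start of the RefSeq transcript on GRCm38.p6, 5′ to 3′ along the gene's strand, at chr7:19410844-19411093 (plus strand) for Ckm, chr13:91876886-91877135 (minus strand) for Ckmt2 and chr10:80261013-80261262 (minus strand) for Gamt. The Ckm window lies inside the GENCODE span of the gene given with its level, which begins further upstream than this RefSeq start. Capitals mark each E-box, CANNTG, the motif bound by myogenic helix-loop-helix factors, which reads the same on both strands.
Ckm: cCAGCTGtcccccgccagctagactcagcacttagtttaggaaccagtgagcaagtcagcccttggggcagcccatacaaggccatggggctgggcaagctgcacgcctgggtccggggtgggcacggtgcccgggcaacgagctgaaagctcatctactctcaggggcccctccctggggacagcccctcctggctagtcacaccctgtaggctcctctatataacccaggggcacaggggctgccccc
Ckmt2: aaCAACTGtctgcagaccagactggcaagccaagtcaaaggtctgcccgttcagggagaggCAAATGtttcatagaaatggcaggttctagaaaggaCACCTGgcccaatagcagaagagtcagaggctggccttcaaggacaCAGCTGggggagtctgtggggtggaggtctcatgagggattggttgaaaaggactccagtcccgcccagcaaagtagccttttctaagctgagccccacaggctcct
Gamt: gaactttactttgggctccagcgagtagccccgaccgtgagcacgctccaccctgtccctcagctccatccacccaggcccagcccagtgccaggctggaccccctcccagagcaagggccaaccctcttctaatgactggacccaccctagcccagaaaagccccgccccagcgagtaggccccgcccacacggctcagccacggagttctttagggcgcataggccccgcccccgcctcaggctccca
The Ckm window held 1 E-box, the Ckmt2 window 4 and the Gamt window 0. Windows of other members without a call held 0 (Ckb), 2 (Adssl1), 1 to 3 (Ak1) and 0 to 3 (Ampd3). Of 32851 mouse windows of this length, 66.2% held at least 1 E-box and 3.84% held 4 or more. The motif AGGTCA, the core of nuclear receptor sites, stood on neither strand in these 3 windows, against 14.0% of all windows. It did stand in windows of Adssl1 and Ak1, which were not called. Its extended form TNAAGGTCA, found in 1.14% of all windows, stood in none of the 12 windows of the 7 members that have any. A match or its absence describes these letters in these windows only. Windows for Ampd1 and Slc6a8 were not used here.

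Levels spanned more than 3 orders of magnitude, and because FPKM is per length they can be compared between genes. Ckm, the cytosolic muscle creatine kinase (ENSMUSG00000030399, chromosome 7, 19404776 to 19422841, GRCm38), stood highest at a mean of 13349 FPKM over the 12 libraries. It alone held 1.37% ± 0.0675 (SD, n = 3) of all FPKM in the libraries labelled Ctrl, Sedentary. Adssl1, Ckmt2, Ak1 and Ampd1 followed at means of 1038, 1035, 734 and 526 FPKM. Slc6a8 at 50.3, Gamt at 13.6, Ckb at 6.87 and Ampd3 at 2.99 FPKM made up the low end. Over all libraries the ranges of Adssl1 and Ckmt2 overlapped, as did those of Ckmt2 and Ak1 and those of Gamt and Ckb, while the other neighbours in this order stood apart. The place of Ckmt2 differed between the labelled genotypes: it lay below Adssl1 in 6 of 6 libraries labelled Ctrl and above it in 6 of 6 labelled Nrip1KO. The plot of member values by library shows all 9 genes.

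**Figure D1:**
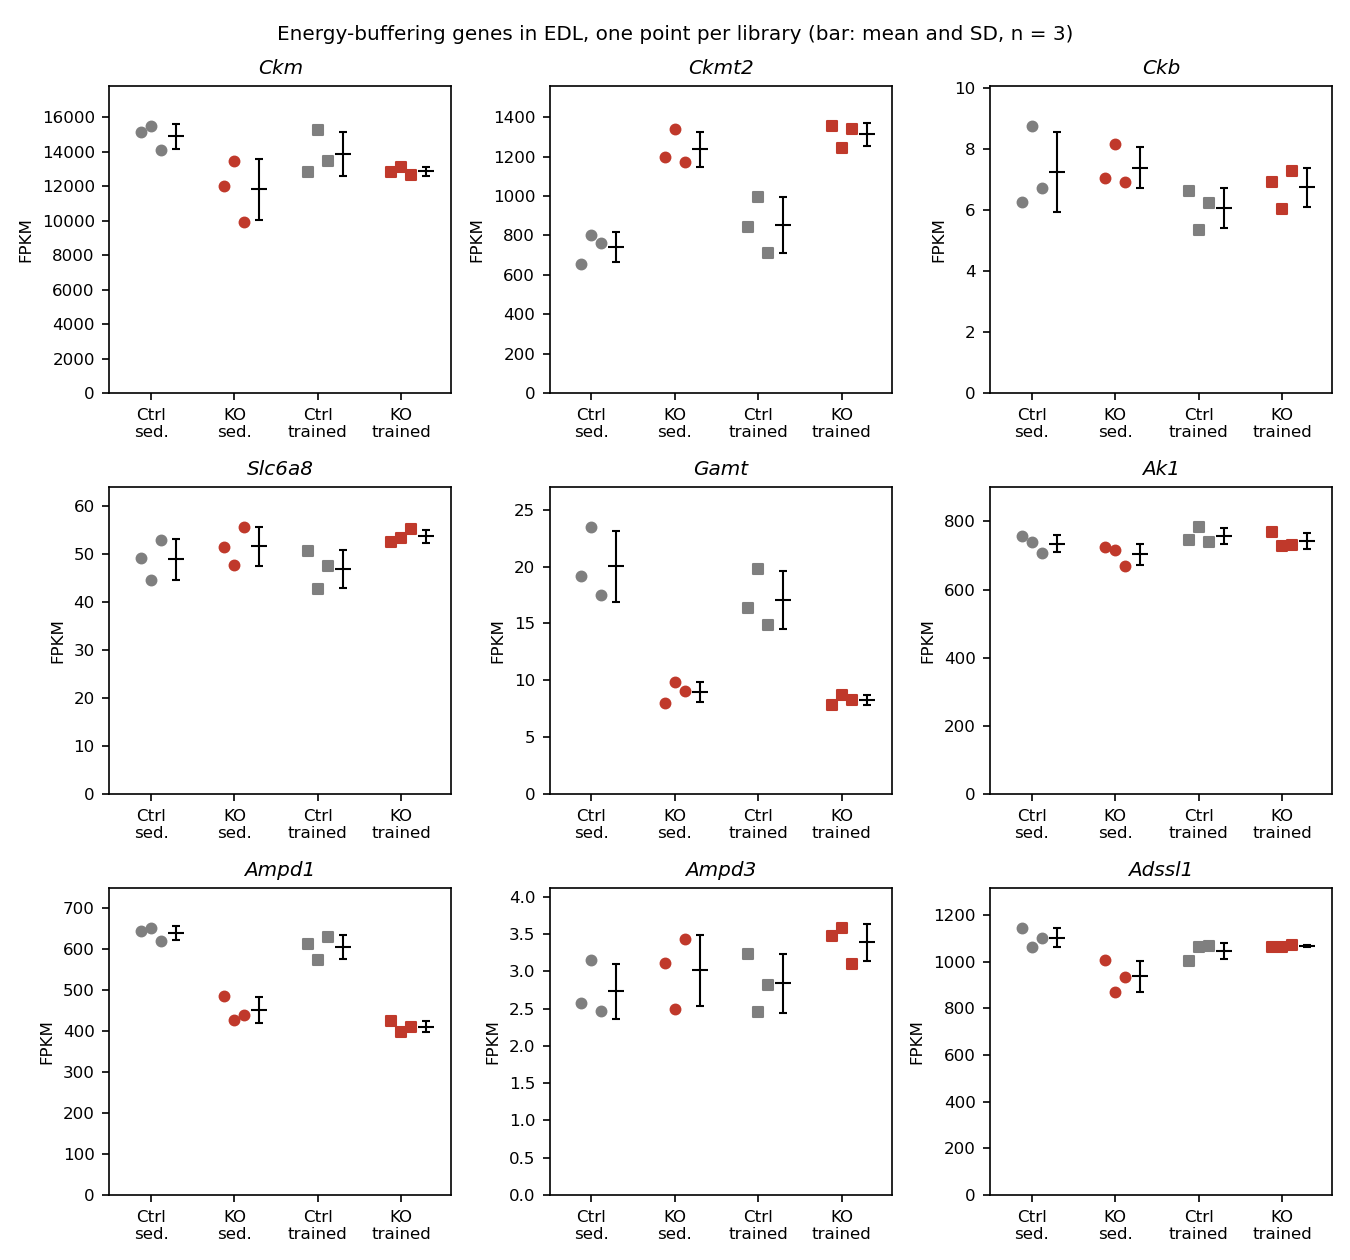
FPKM of the 9 members in each of the 12 libraries, with a panel per gene and the y axis from 0. Circles are sedentary and squares trained libraries, grey is labelled Ctrl and red labelled Nrip1KO ("KO"), and bars give the mean and SD (n = 3). Gamt and Ampd1 sit lower, and Ckmt2 higher, in all 6 libraries labelled Nrip1KO than in all 6 labelled Ctrl.

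Between the labelled genotypes 3 of 9 members were called in sedentary and 3 of 9 in trained muscle, and they were the same genes. Ckmt2 rose, while Gamt and Ampd1 fell. Of all 12744 genes tested, sedentary muscle had 3.51% called (447 genes, with 1.92% higher and 1.59% lower) and trained muscle 5.98% (762 genes, with 3.21% higher and 2.77% lower). Higher calls numbered 245 and 409, and these splits depended on scaling: with each library set to the same FPKM sum, which moved the median of all genes by −0.14 in sedentary muscle, 121 of 652 calls were higher in sedentary and 549 of 679 in trained muscle. With the same sum over nuclear genes, 397 of 480 and 466 of 615 calls were higher. The median log2 difference of the 9 members was −0.06 in sedentary and 0.03 in trained muscle, beside −0.00 and 0.01 over all genes tested. The groups stood apart for 5 of 9 members in sedentary muscle (1 higher, 4 lower) and for 4 of 9 in trained muscle (2 higher, 2 lower), beside 20.7% (9.79% higher and 10.9% lower) and 27.3% (13.9% higher and 13.4% lower) of all genes tested. The 2 comparisons do not share libraries, but all came from the same fit.

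Ckmt2 encodes the mitochondrial creatine kinase of striated muscle and lies on chromosome 13 (ENSMUSG00000021622, 91853387 to 91876885, minus strand). Its level was 657, 801 and 764 FPKM in the libraries labelled Ctrl, Sedentary and 1201, 1340 and 1170 FPKM in those labelled Nrip1KO, Sedentary. In trained muscle the libraries labelled Ctrl held 843, 997 and 713 FPKM and those labelled Nrip1KO 1355, 1246 and 1340 FPKM. The groups did not overlap in either state, and the highest library labelled Ctrl, a trained one, lay below the lowest labelled Nrip1KO. The log2 fold change was 0.74 (SE 0.119, limma adjusted p = 0.0071) in sedentary and 0.64 (SE 0.119, limma adjusted p = 0.0109) in trained muscle. The ratio of mean FPKM was 1.67 and 1.54. By size Ckmt2 ranked 71 of 245 and 145 of 409 among the calls that were higher. Without the library labelled Nrip1KO, Trained replicate 3 the trained difference was 0.62, with a limma adjusted p of 0.0501.

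Ckm did not pass the test in either state. It was at 15129, 15481 and 14088 FPKM in libraries labelled Ctrl, Sedentary and at 11991, 13481 and 9935 FPKM in those labelled Nrip1KO, Sedentary. These groups stood apart, with the lowest library labelled Ctrl above the highest labelled Nrip1KO, and the log2 difference was −0.35 (SE 0.122, 95% interval −0.61 to −0.08, limma adjusted p = 0.174). In trained muscle Ckm was at 12820, 15264 and 13459 FPKM under the Ctrl label and 12800, 13125 and 12618 FPKM under the Nrip1KO label. Here the groups overlapped, with a difference of −0.10 (95% interval −0.37 to 0.16, limma adjusted p = 0.693). The sedentary call depended on scaling: with the same FPKM sum per library the difference was −0.50 (limma adjusted p = 0.00145), which is −0.36 relative to the median of all genes, and with the same nuclear sum it was −0.27 (limma adjusted p = 0.0161), so that Ckm was called under both. Under quantile normalization the sedentary difference was −0.22 (limma adjusted p = 0.0315), short of the fold change threshold. The sign in trained muscle turned to 0.13 under that scaling. Of 7 fast glycolytic fibre markers 2, Mybpc2 and Actn3, were called lower in each state. Of all genes tested 1.59% were called lower in sedentary and 2.77% in trained muscle. The sum over these 7 markers was 80146 to 87975 FPKM under Ctrl, Sedentary and 60267 to 79849 FPKM under Nrip1KO, Sedentary. As for Ckm, the sedentary groups stood apart. In trained muscle the sum was 78191 to 91589 FPKM under Ctrl and 66430 to 70539 FPKM under Nrip1KO, groups that stood apart where those of Ckm overlapped. The part of these markers in the values of Ckm was not tested.

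The make-up of the creatine kinase transcripts differed between the labelled genotypes. Ckm made up 95.2% ± 0.521 (SD, n = 3) of the 4 creatine kinase genes under Ctrl, Sedentary and 90.4% ± 0.85 under Nrip1KO, Sedentary. The share of Ckmt2 was 4.74% ± 0.515 and 9.55% ± 0.849 in these groups, and 5.77% ± 0.648 and 9.28% ± 0.53 in the trained ones. Log2 ratios of members within a library were taken after adding 0.5 FPKM to each gene. For Ckmt2 over Ckm the ratio was −4.53, −4.27 and −4.20 under Ctrl, Sedentary and −3.32, −3.33 and −3.08 under Nrip1KO, Sedentary. Trained libraries held −3.93, −3.94 and −4.24 under Ctrl and −3.24, −3.40 and −3.23 under Nrip1KO. All 6 libraries labelled Nrip1KO lay above all 6 labelled Ctrl, with a mean difference of 0.92 (exact two-sided permutation p = 0.005, the smallest that the 400 arrangements within training state allow, 0.025 after Benjamini-Hochberg adjustment over 10 tests). Without the added 0.5 FPKM, where a ratio does not depend on how the library was scaled, the mean difference was also 0.92. Ckmt2 was called higher in these same libraries and Ckm was not called, so this p-value is not separate from the rise of Ckmt2.

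**Figure D2:**
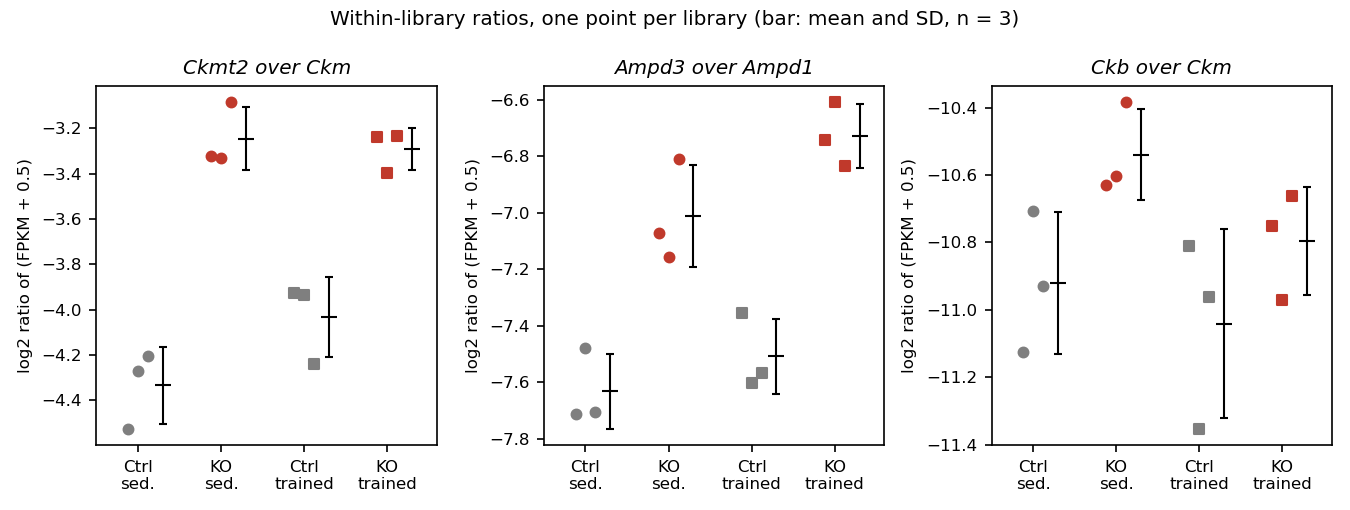
Log2 ratio of 2 members within each library, after adding 0.5 FPKM to each (y axis, no unit), for Ckmt2 over Ckm, Ampd3 over Ampd1 and Ckb over Ckm, with the mean and SD of each group (n = 3). Circles are sedentary and squares trained libraries, grey is labelled Ctrl and red labelled Nrip1KO. In the first pair of panels all red points lie above all grey ones, by a mean of 0.92 and 0.70 within training states, while in the third the groups overlap when trained.

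Ckb, the brain-type cytosolic creatine kinase (ENSMUSG00000001270, chromosome 12, 111669361 to 111672338, minus strand), is a minor isoform of adult muscle. Its level was 5.34 to 8.76 FPKM over the 12 libraries, and no more than 0.0624% of the creatine kinase transcripts in any of them. The groups overlapped in both states, with log2 differences of 0.03 (95% interval −0.26 to 0.33) and 0.14 (95% interval −0.15 to 0.43) and limma adjusted p = 0.94 and 0.604. The sedentary sign turned to −0.11 with the same FPKM sum per library. The ratio of Ckb over Ckm was higher under the Nrip1KO label by 0.31 (exact two-sided permutation p = 0.025, adjusted 0.0625), which missed the threshold. Ckmt1, the ubiquitous mitochondrial isoform, lay at 0.455 to 1.42 FPKM in group means and was not called.

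Creatine reaches muscle by uptake through the transporter Slc6a8 and by synthesis, whose last step is carried out by Gamt, guanidinoacetate N-methyltransferase. Gamt (ENSMUSG00000020150, chromosome 10, 80258151 to 80261012, minus strand) fell in both states. Its level was 19.1, 23.5 and 17.5 FPKM under Ctrl, Sedentary and 8.01, 9.82 and 9.07 FPKM under Nrip1KO, Sedentary. When trained it was at 16.4, 19.8 and 14.9 FPKM under Ctrl and at 7.83, 8.72 and 8.29 FPKM under Nrip1KO. The lowest library labelled Ctrl, at 14.9 FPKM, lay well above the highest labelled Nrip1KO, at 9.82 FPKM. The log2 fold change was −1.11 (SE 0.13, limma adjusted p = 0.00109), or −55.2%, in sedentary muscle and −0.99 (SE 0.13, limma adjusted p = 0.00169), or −51.4%, in trained muscle. Its difference was the largest of the 9 in each state, and it ranked 19 of 202 and 27 of 353 among the calls that were lower. It remained called under every alternative tried, with differences from −1.26 to −0.99 in sedentary and from −1.08 to −0.88 in trained muscle.

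Slc6a8 (ENSMUSG00000019558, chromosome X, 73673150 to 73682502, plus strand) was not called. Its level was 44.6 to 53.0 FPKM under Ctrl, Sedentary and 47.6 to 55.6 FPKM under Nrip1KO, Sedentary, and these groups overlapped. In trained muscle it was at 50.6, 42.7 and 47.5 FPKM under Ctrl and 52.6, 53.2 and 55.3 FPKM under Nrip1KO, so that the groups stood apart. The log2 differences were 0.08 (95% interval −0.12 to 0.27, limma adjusted p = 0.761) and 0.20 (95% interval 0.00 to 0.39, limma adjusted p = 0.228). With the same FPKM sum per library the sedentary sign turned to −0.08. Gatm, the enzyme of the first step of creatine synthesis, was low at 1.60 to 2.11 FPKM in group means and was not called, with differences of −0.16 and −0.12. Of the 7 genes of creatine handling, all tested, Ckmt2 was the only call higher and Gamt the only call lower in each state.

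Ak1, the cytosolic adenylate kinase of muscle (ENSMUSG00000026817, chromosome 2, 32621758 to 32635058, plus strand), had the narrowest relative range of the 9, 669 to 783 FPKM. Its level was 757, 739 and 707 FPKM under Ctrl, Sedentary and 724, 717 and 669 FPKM under Nrip1KO, Sedentary. In trained muscle the ranges were 741 to 783 FPKM and 726 to 769 FPKM. The groups overlapped in both states, and the log2 differences were −0.06 (95% interval −0.20 to 0.07, limma adjusted p = 0.713) and −0.03 (95% interval −0.16 to 0.11, limma adjusted p = 0.863). With the same nuclear sum per library these signs turned to 0.02 and 0.01. Ak1 held 87.1% to 88.5% of the adenylate kinase transcripts in group means. The ratio of Ak1 over Ckm was higher by 0.18 under the Nrip1KO label (exact two-sided permutation p = 0.015), with an adjusted value of 0.05 that did not fall under the threshold. Of a list of 16 nucleoside phosphate kinases 12 were tested, Ak1 among them, and none was called in either state. Nme2, a nucleoside diphosphate kinase, went from 403 ± 38.5 to 472 ± 91.4 FPKM (log2 difference 0.22, limma adjusted p = 0.492) and Ak6 from 57.0 ± 3.28 to 50.9 ± 7.26 FPKM (−0.17, limma adjusted p = 0.451) in sedentary muscle (SD, n = 3).

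AMP deaminase removes AMP as IMP and ammonia, and Ampd1 encodes its skeletal muscle isoform (ENSMUSG00000070385, chromosome 3, 103074014 to 103099720, plus strand). Ampd1 fell in both states. Its level was 645, 652 and 619 FPKM under Ctrl, Sedentary and 486, 426 and 440 FPKM under Nrip1KO, Sedentary. When trained it was at 612, 573 and 629 FPKM under Ctrl and 426, 398 and 410 FPKM under Nrip1KO. Every library labelled Nrip1KO lay below every library labelled Ctrl. The log2 fold change was −0.50 (SE 0.0682, limma adjusted p = 0.00237), or −29.4%, in sedentary muscle and −0.56 (SE 0.0682, limma adjusted p = 0.00128), or −32.0%, in trained muscle. It ranked 86 of 202 and 111 of 353 among the lower calls, and remained called under every alternative tried.

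Ampd3, the isoform first described in red blood cells (ENSMUSG00000005686, chromosome 7, 110768206 to 110812405, plus strand), had the lowest mean of the 9 members. Its level was 2.58, 3.15 and 2.47 FPKM under Ctrl, Sedentary and 3.12, 2.49 and 3.43 FPKM under Nrip1KO, Sedentary. In trained muscle it was at 3.24, 2.45 and 2.82 FPKM under Ctrl and 3.48, 3.58 and 3.10 FPKM under Nrip1KO. The groups overlapped in both states, and differences of 0.12 (95% interval −0.18 to 0.42, limma adjusted p = 0.771) and 0.22 (95% interval −0.08 to 0.52, limma adjusted p = 0.39) did not pass. The sedentary sign turned to −0.01 with the same FPKM sum per library. Ampd3 overlaps Rnf141 on the opposite strand, which was at 5.84 to 9.25 FPKM, and the libraries did not keep strand, so reads from the overlap cannot be assigned. The summed level of 5 red blood cell markers was 723 to 1834 FPKM over the 12 libraries, and its part in Ampd3 was not tested.

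Within libraries the balance of the 2 isoforms differed between the labelled genotypes. With 0.5 FPKM added to each gene, the log2 ratio of Ampd3 over Ampd1 was −7.71, −7.48 and −7.71 under Ctrl, Sedentary and −7.07, −7.16 and −6.81 under Nrip1KO, Sedentary. Trained libraries held −7.36, −7.60 and −7.57 under Ctrl and −6.74, −6.61 and −6.83 under Nrip1KO. Again the 6 libraries of each label did not overlap, and the mean difference was 0.70 (exact two-sided permutation p = 0.005, adjusted 0.025), or 0.73 without the added 0.5 FPKM. Ampd1 was called lower in these same libraries and Ampd3 was not called, so this p-value is not separate from the fall of Ampd1. Ampd1 still made up nearly all AMP deaminase transcripts, 99.2% ± 0.112 (SD, n = 3) under Ctrl, Sedentary and 98.6% ± 0.139 under Nrip1KO, Sedentary. Ampd2, the isoform best known from liver, was at 2.64 ± 0.474 and 3.46 ± 0.384 FPKM in sedentary muscle and was not called (limma adjusted p = 0.408).

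Adssl1, the muscle adenylosuccinate synthetase (ENSMUSG00000011148, chromosome 12, 112620045 to 112641360, plus strand), showed a different pattern in sedentary and trained muscle. Its level was 1144, 1062 and 1101 FPKM under Ctrl, Sedentary and 1005, 872 and 935 FPKM under Nrip1KO, Sedentary, groups that stood apart. When trained it was at 1004, 1062 and 1069 FPKM under Ctrl and 1062, 1064 and 1073 FPKM under Nrip1KO, groups that overlapped. The sedentary difference was −0.24 (SE 0.0684, limma adjusted p = 0.0951) and the trained one 0.03 (SE 0.0684, limma adjusted p = 0.863). The difference between these differences was 0.26 (SE 0.0968, unadjusted p = 0.0191), with a limma adjusted p of 0.599, so the interaction did not pass. With the same FPKM sum per library the sedentary value was −0.39 (limma adjusted p = 0.0454), which was called, and is −0.25 relative to the median of all genes. Under quantile normalization the trained sign turned to −0.15. Adssl1 held 99.5% to 99.6% of adenylosuccinate synthetase transcripts in group means, and the ratio of Adss, the widely expressed isoform, over Adssl1 did not pass (difference 0.12, exact two-sided permutation p = 0.175, adjusted 0.25). Adsl, adenylosuccinate lyase, which completes the cycle, was at 86.5 ± 2.35 and 88.5 ± 6.02 FPKM in sedentary muscle (SD, n = 3) and was not called. Of the 6 genes of the purine nucleotide cycle, Ampd1 was thus the only call in each state.

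**Figure D3:**
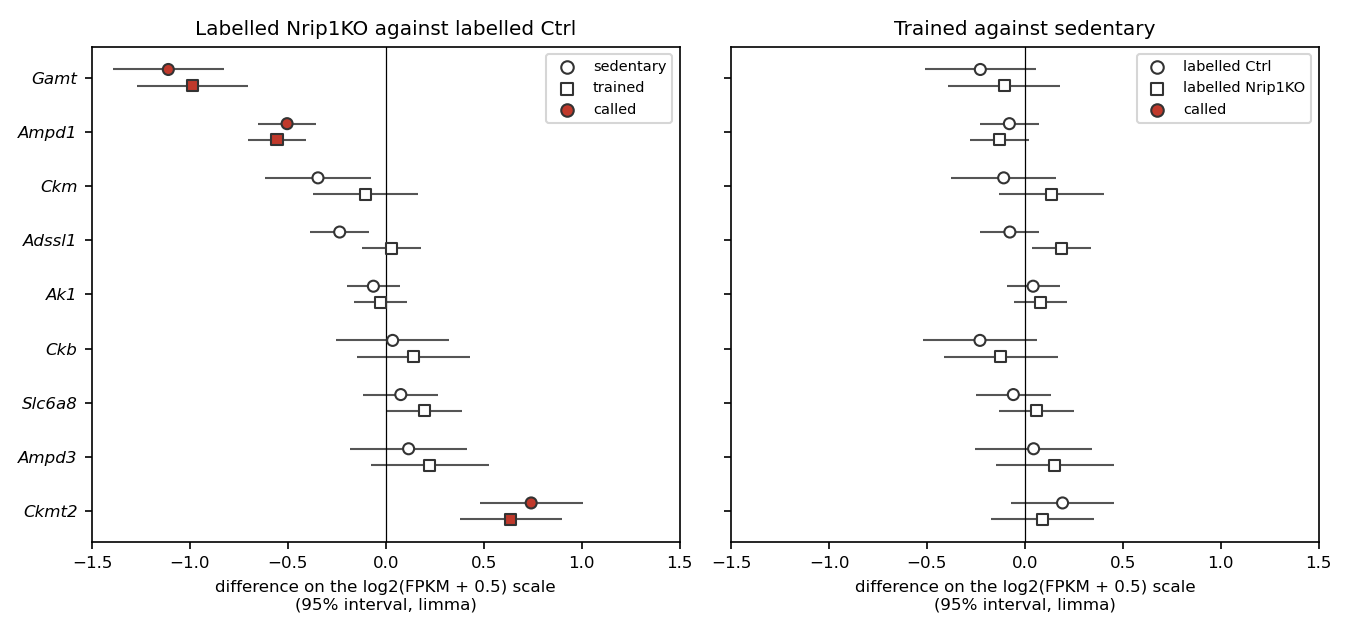
Log2 differences of the 9 members on the log2(FPKM + 0.5) scale (x axis) with 95% limma intervals, for labelled Nrip1KO against labelled Ctrl (left) and for trained against sedentary (right). Circles and squares are the 2 comparisons of each kind, filled symbols are called genes, and genes are ordered by the sedentary genotype difference. Gamt, Ampd1 and Ckmt2 are called on the left, from −1.11 to 0.74, and no symbol is filled on the right.

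Training called none of the 9 members, either under the Ctrl label or under the Nrip1KO label, and no gene of all 12744 tested (0% called), although an unadjusted limma p-value under 0.05 was reached by 1061 and 1544 genes and by 0 and 1 members. Member differences ran from −0.23 to 0.19 under Ctrl and from −0.13 to 0.19 under Nrip1KO, with medians of −0.08 and 0.08 beside 0.00 and 0.01 over all genes. Under Ctrl the trained and sedentary groups overlapped for all 9 members, beside 14.3% of all genes whose groups stood apart (7.76% higher, 6.5% lower). Under Nrip1KO they stood apart for 3 of 9 (Ak1 and Adssl1 higher, Ampd1 lower), beside 16.9% of all genes (9.4% higher, 7.5% lower). Adssl1 was nearest to the threshold, with 1005, 872 and 935 FPKM sedentary against 1062, 1064 and 1073 FPKM trained (difference 0.19, SE 0.0684, limma adjusted p = 0.321). Ckmt2, whose enzyme sits in mitochondria, differed by 0.19 (95% interval −0.07 to 0.45) under Ctrl and by 0.09 (95% interval −0.17 to 0.35) under Nrip1KO. With the same FPKM sum per library Ckm was called higher with training under the Nrip1KO label (0.31, limma adjusted p = 0.0471), which is 0.15 relative to the shift of 0.16 in the median of all genes under that scaling. None of the 5 ratios passed for training, and Ampd3 over Ampd1 came nearest at 0.20 (exact two-sided permutation p = 0.05, adjusted 0.1). The interaction was called for none of the 9 members and for no gene tested, with limma adjusted p-values from 0.599 to 0.952 for the members and an unadjusted p under 0.05 for 989 genes.

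Of 15 tested genes of AMP and adenosine breakdown and salvage, neighbouring steps of adenine nucleotide handling, 1 was higher and 1 lower in sedentary muscle, beside 3.51% of all genes called in either direction. In trained muscle 2 were higher and 1 lower, beside 5.98% of all genes. Adk, adenosine kinase, which returns adenosine to AMP, rose from 67.4 ± 5.30 to 103 ± 14.6 FPKM (log2 fold change 0.61, SE 0.143, limma adjusted p = 0.0418) when sedentary. In trained muscle it rose from 65.3 ± 14.2 to 100.04 ± 4.59 FPKM (0.63, SE 0.143, limma adjusted p = 0.0262). Ada, adenosine deaminase, fell from 1.34 ± 0.288 to 0.519 ± 0.155 FPKM in sedentary muscle (−0.85, SE 0.198, limma adjusted p = 0.0398), and its trained difference was −0.14 (limma adjusted p = 0.753). Aprt, which salvages adenine, rose from 21.6 ± 1.18 to 27.1 ± 1.54 FPKM in trained muscle (0.33, limma adjusted p = 0.0391), and Hprt, which salvages hypoxanthine, fell from 23.9 ± 1.29 to 18.3 ± 1.60 FPKM (−0.38, limma adjusted p = 0.0499). Gmpr, GMP reductase, was the most abundant gene of this list, at 126 ± 1.17 and 115 ± 13.4 FPKM in sedentary muscle, and was not called.

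Carriers that pass ATP, ADP and phosphate across the mitochondrial membranes were measured as a list of 9, all tested. Of these 1 was called higher in sedentary and 1 lower in trained muscle, beside 1.92% and 2.77% of all genes called in these directions. Slc25a3, the phosphate carrier, rose from 670.4 ± 47.1 to 899 ± 83.6 FPKM when sedentary (0.42, SE 0.0963, limma adjusted p = 0.0379) and was at 712 ± 72.2 and 909 ± 52.1 FPKM when trained (0.36, limma adjusted p = 0.0542). Slc25a25, a calcium-regulated ATP-Mg and phosphate carrier, fell from 48.3 ± 4.68 to 16.6 ± 12.2 FPKM in trained muscle (−1.73, SE 0.384, limma adjusted p = 0.0239). Slc25a4, the adenine nucleotide translocase of muscle, was at 2295 ± 192 and 2850.0 ± 492 FPKM in sedentary muscle (0.30, limma adjusted p = 0.283) and was not called, nor was Vdac1, the outer membrane channel (0.13, limma adjusted p = 0.342). Training called no gene of any of these lists under either label.

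The tested genes whose log2 levels followed each member most closely over the 12 libraries are given as a description, by Pearson's r; the points share the 2 labelled genotypes, so r was also taken within each label (n = 6). Ckmt2 was most like Hadhb (r = 0.987), a subunit of the mitochondrial trifunctional protein of fatty acid oxidation, then Got2 (0.985) and Dlst (0.983). For Hadhb r was 0.984 within Ctrl and 0.607 within Nrip1KO. All 3 rose in both states, Hadhb by 0.66 and 0.57 (limma adjusted p = 0.00124 and 0.00241). Gamt was most like Xbp1 (r = 0.982, and 0.924 and 0.740 within labels), a transcription factor of the unfolded protein response, then Ssr1 (0.978) and Cib2 (0.962). Of these Cib2, a calcium and integrin binding protein, fell by about as much as Gamt, by log2 values of −1.19 and −1.03 (limma adjusted p = 7.94e-05 and 0.000203), but its r within labels was 0.649 and 0.249. Xbp1 fell by less than Gamt, −0.47 and −0.33 (limma adjusted p = 0.00639 and 0.0229). Ampd1 was most like Cers1 (r = 0.972, and 0.760 and 0.763 within labels), a ceramide synthase, then Crot and Pla2g7.

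**Figure D4:**
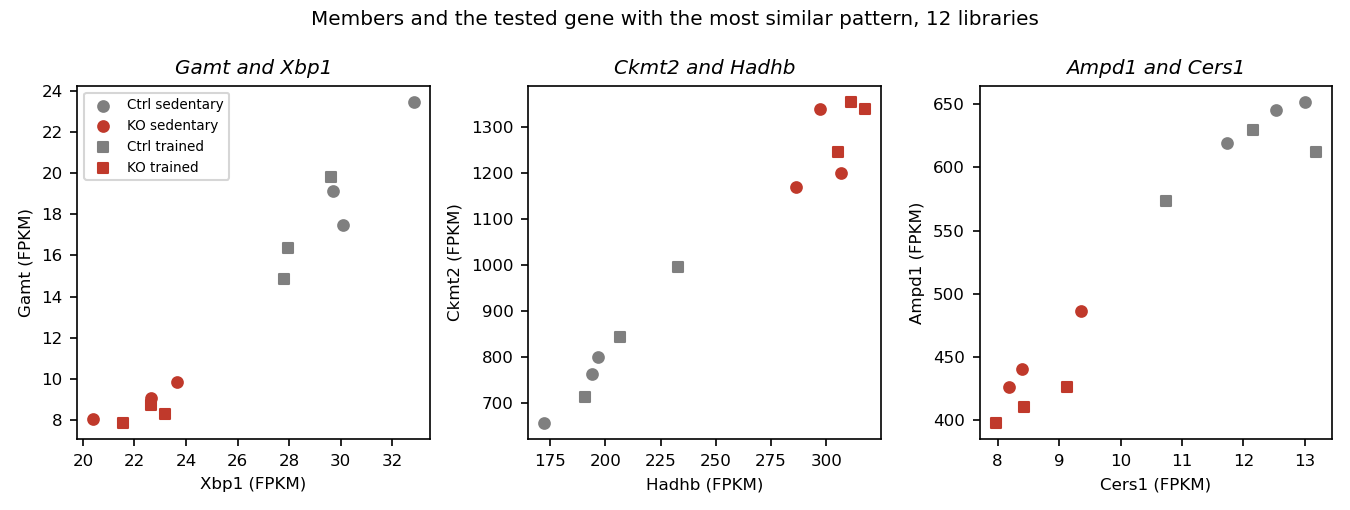
FPKM of Gamt, Ckmt2 and Ampd1 (y axes) against that of the tested gene whose pattern was most like it, Xbp1, Hadhb and Cers1 (x axes), with a point per library and axes that do not start at 0. Circles are sedentary and squares trained libraries, grey is labelled Ctrl and red labelled Nrip1KO. Points form a cluster for each label, with r over 12 libraries of 0.982, 0.987 and 0.972.

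Among the genes closest to Ckm were Saraf (r = 0.963, and 0.870 and 0.973 within labels) and Kars (0.958, and 0.982 and 0.938 within labels), a lysyl-tRNA synthetase gene. Like Ckm, neither passed the sedentary test, with log2 differences of −0.21 for Saraf and −0.15 for Kars (limma adjusted p = 0.183 and 0.256). Adssl1 was most like Cavin1 (r = 0.938), a caveolar coat protein gene, which fell in sedentary muscle (−0.35, limma adjusted p = 0.0208) and differed by −0.01 in trained muscle, then Hrc and Atg9a. For the other 4 members without a call the nearest genes were Aplf (0.943), Rpp25l and Aida for Ak1, She (0.917), Zadh2 and Trim56 for Slc6a8, Iars2 (0.897) and Btbd9 for Ampd3, and Gemin6 (0.877), Tm4sf1 and Vps72 for Ckb. None of these 11 genes was called between the labelled genotypes.

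Of the 11 marker lists, the fast glycolytic list had 2 of 7 genes called lower in each state, with medians of −0.35 and −0.39, and the endothelial list 1 of 7, Tie1, called higher in trained muscle. Of all genes tested 1.59% were called lower in sedentary and 2.77% in trained muscle, and 3.21% were called higher in trained muscle. The summed level of the 6 adipocyte markers was 12.4 to 25.5 FPKM under Ctrl, Sedentary, 43.1 to 116 FPKM under Nrip1KO, Sedentary, 35.1 to 76.9 FPKM under Ctrl, Trained and 43.8 to 113 FPKM under Nrip1KO, Trained. None of the 5 adipocyte markers that passed the filter was called. The part of adipocyte RNA in the members' values was not tested. The summed slow fibre markers overlapped between all 4 groups. Antisense or sense-overlapping genes are annotated within Ckm, Ckmt2 and Ampd1, and were not used here, so reads from them cannot be told from those of the members.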

How the data were processed

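RNA-seq was performed on EDL muscle, 3 libraries in each of 4 groups, which were taken with their replicate numbers from the sample labels. Total RNA went through a kit that does not keep strand. Per the submitters' processing notes, reads were quantified with Salmon 1.10.2 on mm10 and tested with DESeq2 1.44.0. The authors summed transcripts to genes with tximport and deposited FPKM values, whose exact function and annotation release are not given in the sources used here. They also deposited log2 fold changes and adjusted p-values of their own comparisons, which were not used. No column belonged to other samples. FPKM summed to 1.03 M to 1.32 M per library while median ratios between libraries were 1.00, so values arrived scaled between libraries. Gene coordinates are those of GENCODE M21 on GRCm38, which held 17745 of the 17752 identifiers.

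FPKM is no count, so no count model was run. Depth was read from the spacing of low values in 1619 genes with a single transcript over 1500 nt, where 98.8% to 99.7% of values fell no more than 0.15 from whole fragment numbers (30% by chance). By that scale 3 fragments on a 2 kb gene equal 0.0508 to 0.0761 FPKM, and such limits cover counting error only. No replicates shared identical values. Values were taken as log2(FPKM + 0.5), and limma 3.58.1 in R 4.3.3 was fitted to group means over all 12 libraries, for the 12744 genes whose mean reached 0.5 FPKM, with a trend in the variance prior. Contrasts were two-sided with Benjamini-Hochberg adjustment over all genes tested, and calls needed an adjusted p under 0.05 and a fold change above 1.2, as the study set them (adjusted p alone for the interaction). The 5 ratios of members within a library were tested by exact permutation within strata. The limma step was tested on simulated data, for the sedentary genotype contrast. Named genes were the 9 members, Nrip1, genes called in 5 neighbouring lists with the 2 most abundant non-members of each, and the 3 tested genes nearest to each member by Pearson's r, of which 2 are not reported here. The members and lists were chosen with earlier results of these data known. Alternatives covered the pseudocount (0.1 and 1), the filter (none and 5 FPKM), the variance prior, 3 other scalings, a replicate block, each library left out and a fit of only the 6 libraries compared. Promoter windows came from RefSeq and matched 7 of 9 members.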

Additional observations from a re-analysis of the deposited data

How the results depend on the processing

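Of 976 values that the alternatives gave for the 45 member results, 944 kept their direction and their side of the threshold. A fit of only the 6 libraries compared gave 166 genotype calls in sedentary and 445 in trained muscle. With the same FPKM sum per library 5 members were called in sedentary muscle, Ckm and Adssl1 beside the 3 reported, and 1, Ckm, for training under the Nrip1KO label. Under that scaling 652 of all 12744 genes were called in sedentary muscle, 531 of them lower. For training under Ctrl 8 genes were called at a mean of at least 5 FPKM, 4 under quantile normalization, 1 with the same FPKM sum and 2 with the same nuclear sum. For training under Nrip1KO these were 5 at the higher filter, 150 with the same FPKM sum and 3 with the same nuclear sum. That FPKM sum moved the median of all genes by −0.14 in sedentary muscle, by 0.16 for training under Nrip1KO and by 0.20 for the interaction, and the cause of these changes was not tested.

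None of the differences that turned sign was called. With the same FPKM sum they became −0.11 for Ckb, −0.079 for Slc6a8 and −0.014 for Ampd3 in sedentary muscle, 0.037 for Ak1 in trained muscle, −0.0024 for Ak1 with training under Ctrl, 0.042 for Ckb, 0.061 for Gamt and 0.046 for Ampd1 with training under Nrip1KO, and 0.12 for Ckmt2 and 0.17 for Ampd1 in the interaction. With the same nuclear sum Ak1 became 0.017 in sedentary muscle, 0.011 in trained muscle and −0.0064 in the interaction. Quantile normalization gave 0.13 for Ckm and −0.15 for Adssl1 in trained muscle and −0.042 for Ak1 in the interaction.

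With each library left out in turn, calls ran from 163 to 478 in sedentary and from 315 to 874 in trained muscle, from 0 to 30 for training under Ctrl, from 0 to 4 under Nrip1KO and from 0 to 1 for the interaction. In sedentary muscle 163, 222 and 216 were called without Ctrl, Sedentary replicates 1, 2 and 3 and 260 without Nrip1KO, Sedentary replicate 1. In trained muscle 385 were called without Ctrl, Trained replicate 1 or 3, and 333 and 315 without Nrip1KO, Trained replicates 2 and 3. The 30 arose without Ctrl, Trained replicate 1. Members called stayed at 3 in sedentary muscle and were 2 to 3 in trained muscle. Ranges that crossed 0 were −0.056 to 0.17 for Ckb in sedentary muscle, −0.12 to 0.0069 for Slc6a8 and −0.041 to 0.14 for Ampd3 with training under Ctrl, and, in the interaction, −0.22 to 0.017 for Ckmt2, −0.028 to 0.20 for Ckb, −0.091 to 0.0040 for Ampd1 and −0.0023 to 0.19 for Ampd3. The genotype difference in the ratio of Ckb over Ckm was 0.24 to 0.37 and that of Ak1 over Ckm 0.14 to 0.22, and both passed without Ctrl, Trained replicate 1 (exact permutation, adjusted p = 0.0375 and 0.0333).

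Replicate numbers share no stated animal or day. Deviations of same-numbered libraries correlated at −0.05 to 0.20, over 0.1 in 4 of 12 pairs. Those of different-numbered libraries correlated at −0.18 to 0.11, over 0.1 in 1 of 24. The numbers were not taken as pairs, and a block was run as an alternative. A replicate block called 441 genes in sedentary and 756 in trained muscle, 4 for training under Ctrl, and 3 members in each genotype comparison. With the block the ratio differences were 0.92 for Ckmt2 over Ckm and 0.70 for Ampd3 over Ampd1, each with an exact permutation p adjusted to 0.0781, where 64 arrangements allow no p under 0.03125. Ampd3 and Ckb, at a few FPKM, had the widest intervals among the members, narrowly above that of Gamt, and arms of 3 libraries limit every value.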
